A study of Sus scrofa with 12 samples.

Results

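TTN and NEB encode titin and nebulin, the giant proteins that run along the filaments of the sarcomere, and the open chromatin of these genes was compared between Duroc and Luchuan pigs in the longissimus dorsi, a muscle of the back. The members were the peak intervals whose midpoint lay in the gene body or within 10 kb of it. Of the 217213 intervals that ATAC-seq gave, 537 were members, 324 at TTN and 213 at NEB.

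In ATAC-seq a transposase enters open chromatin and tags the DNA there, and the tagged pieces are sequenced, so the read count of an interval follows its accessibility. Muscle was taken from 3 Duroc boars, a lean breed, and 3 Luchuan boars, a fat Chinese breed. All were male, 180 days old and kept under the same feeding conditions, with a fast overnight before death, and no allele or agent set the breeds apart in the labels. The table holds 1 read count per interval and breed, with no value for a single boar, so none of the differences below has a replicate check or a test between animals.

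Titin spans from the Z-disc to the M-band. Its I-band part acts as a spring that sets passive tension, and its A-band part is bound to the thick filament. Nebulin runs along the thin filament of skeletal muscle from the Z-disc and is known for setting thin filament length. Both genes consist of many exons that repeat short motifs, and both are strongly transcribed in muscle fibres.

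Overlapping or adjoining intervals called in both breeds were merged and the longest stood for the region, which left 140081 regions with 13746432 Luchuan reads and 20760292 Duroc reads. The median region held 38 Luchuan and 61 Duroc reads. To bring the breeds to one scale, Luchuan reads were multiplied by 1.48, which sets the median log2 ratio of the regions common to both breeds to 0. A log2 ratio is that of Luchuan to Duroc after this scaling and with 0.5 added to each count, so values below 0 are higher in Duroc. Intervals in brackets are 95% Clopper-Pearson intervals and cover counting error only, since reads counted without molecular identifiers need not be separate molecules and the spread between boars is unknown. The tissue label was checked on marker genes, counted with 2 kb on both sides. The 10 muscle fibre markers, among them ACTA1, CKM and MYLPF, had a median of 459 reads of both breeds per kb of gene, against 24.6 over all 19533 protein-coding genes. The medians of the adipocyte, endothelial, fibroblast and immune lists lay between 2.57 and 19.8 reads per kb, and CIDEC, FABP4, CDH5 and LUM had no region, whereas the immune marker CD68 had 149 reads per kb. Cardiac NPPB and MYL7 had no region, whereas NPPA had 34.2 and TNNI3 134 reads per kb. Of 5 genes of tissues that should be absent, ALB and KRT5 had no region and APOA1 had 128 reads per kb. The 2 kb on both sides weigh more in short genes, so these values do not compare genes of unlike length evenly. MYLPF, CD68 and NPPA had no region with its midpoint in the gene body, and their reads came from the sequence beside it.

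In Sscrofa11.1, TTN (gene 100519519) spans positions 84226953 to 84501320 of chromosome 15, and NEB (gene 100515976) spans positions 546187 to 766131 of the same chromosome. Strand, exons and start sites are not in the annotation used here, so no region is placed in an exon or intron, and places are distances from the gene end that has the lower coordinate. The 324 intervals of TTN merged into 188 regions, of which 183 had their midpoint inside the gene. The 213 intervals of NEB merged into 132 regions, 128 of them inside the gene. Open regions followed each other along the whole of both genes. The median gap between neighbours was 720.5 bases in TTN and 873 bases in NEB. The longest stretch without a region was 8.44 kb in TTN, 110 kb from the lower end, and 5.96 kb in NEB, 19.2 kb from the lower end.

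This density placed both genes at the top of the long genes. TTN had 6.67 regions per 10 kb of gene body, the highest of the 2880 genes of 100 kb or more, and NEB had 5.82, the second highest. The median of these genes was 0.622 regions per 10 kb (interquartile range, 0.274 to 1.21). Open regions covered 20.5% of TTN and 17.7% of NEB, again the first and second of the long genes, against a median of 2.06%. Per kb of gene body, TTN held 288 reads of both breeds and NEB 183, ranks 1 and 2, and the median long gene held 11.1. Summed over the gene and 2 kb on both sides, no protein-coding gene had more reads than TTN and only TTN had more than NEB, sums that grow with the length of a gene. These ranks describe the pooled libraries and carry no test.

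**Figure D1:**
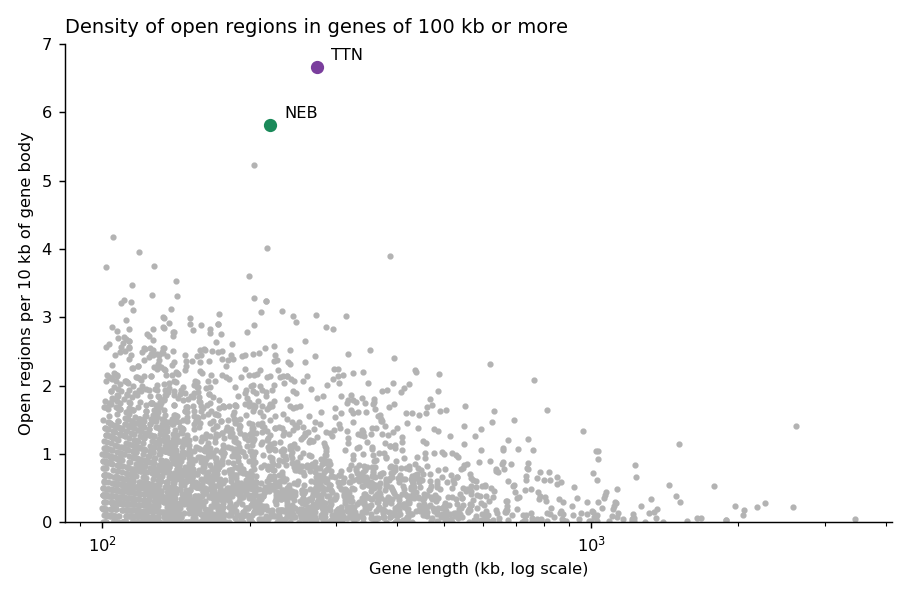
Open regions per 10 kb of gene body (vertical axis) against gene length in kb (horizontal axis, log scale) for the 2880 protein-coding genes of 100 kb or more, each a point. TTN at 6.67 and NEB at 5.82 lie above all other points.

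The regions of TTN were mostly short and of similar signal. Their median length was 238.5 bases (range, 150 to 1693), and 7 of 188 were 1 kb or longer. A region of TTN held between 79 and 1965 Duroc reads with a median of 199.5, and between 39 and 1287 Luchuan reads with a median of 137, before scaling. Per kb of region, the Duroc signal ran from 503 to 1161 reads with a median of 810, and the scaled Luchuan signal from 312 to 1301 with a median of 794. The ranges of the breeds overlapped almost wholly. In NEB the median length was 227 bases (range, 150 to 1564), and 3 of 132 regions were 1 kb or longer. A region of NEB held between 32 and 1612 Duroc reads with a median of 141, and between 1 and 953 Luchuan reads with a median of 72. Per kb of region, the Duroc signal had a median of 639 reads and the scaled Luchuan signal a median of 486. The regions of NEB were thus as short as those of TTN, with fewer reads per kb in both breeds.

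**Figure D2:**
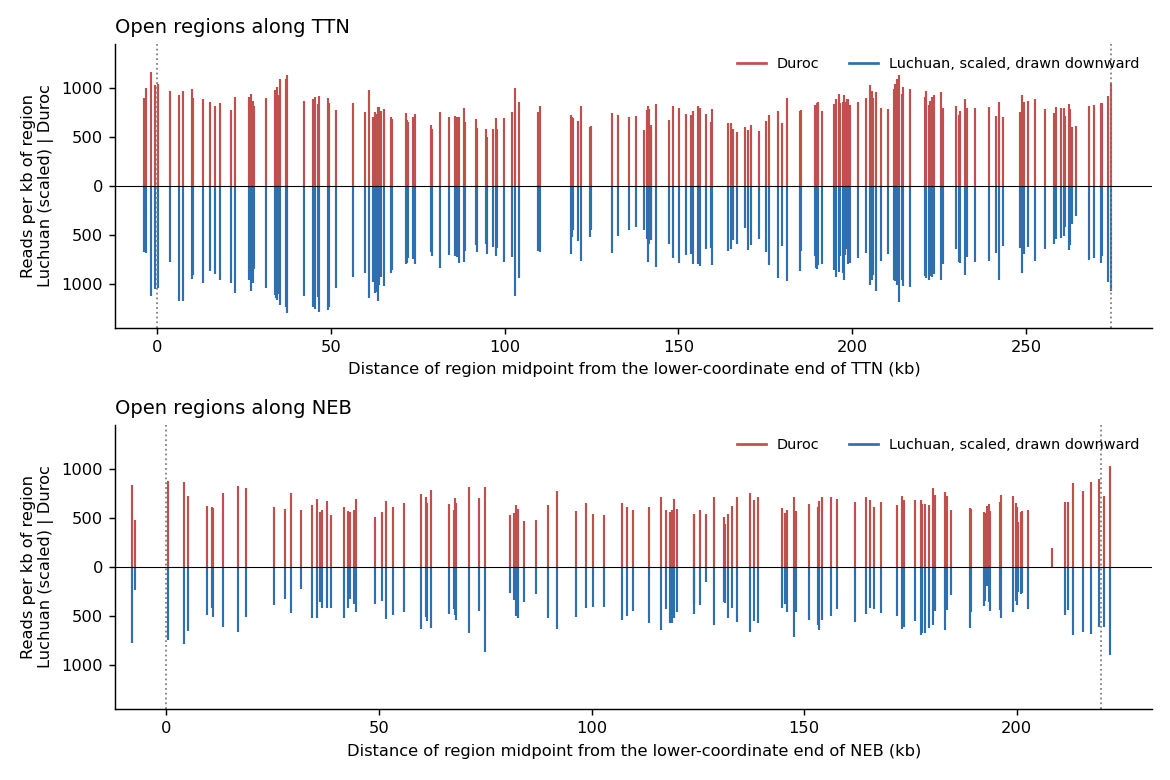
Reads per kb of each open region against the distance of its midpoint from the lower-coordinate end of TTN (top) and NEB (bottom), in kb. Bars upward are Duroc reads, bars downward are Luchuan reads after scaling, and dotted lines mark the gene ends. The bars of TTN have similar heights in both directions, with medians of 810 and 794, and those of NEB are longer upward, with medians of 639 and 486.

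Of the regions with the most reads, some lay near a gene end and others inside the gene. The read count of a region also grows with its length. At the lower end of TTN, the region with the most reads (chr15:84224351-84226043) lay 910 bases outside the gene, with 1287 Luchuan against 1965 Duroc reads and a log2 ratio of -0.05 (-0.15 to 0.06). The region nearest to that end, from 84227178 to 84227412, was much smaller, with 166 Luchuan against 244 Duroc reads and a log2 ratio of 0.01 (-0.28 to 0.30). The other end of TTN lay within the region from 84500955 to 84501759, which held 585 Luchuan against 847 Duroc reads, a log2 ratio of 0.03 (-0.12 to 0.18). The counting intervals of these 3 regions at the ends of TTN all held 0.

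Inside TTN, 4 regions were among the 5 with the most reads. The region from 84233504 to 84235060, 7.33 kb into the gene, held 1240 Luchuan against 1509 Duroc reads, a log2 ratio of 0.28 (0.17 to 0.39). The region from 84248557 to 84250011, 22.3 kb into the gene, held 1080 Luchuan against 1316 Duroc reads, the same log2 ratio of 0.28 (0.16 to 0.40). The regions 207 and 214 kb into the gene were closer to 0. They had log2 ratios of 0.16 (0.03 to 0.30), from 762 Luchuan and 1006 Duroc reads, and 0.07 (-0.07 to 0.20), from 786 Luchuan and 1110 Duroc reads.

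The lower end of NEB lay within the region from 546005 to 547173, with 590 Luchuan against 1024 Duroc reads, a log2 ratio of -0.23 (-0.38 to -0.08). The region nearest to the other end, from 765396 to 765616, held 92 Luchuan against 199 Duroc reads, a log2 ratio of -0.54 (-0.92 to -0.19). The region of NEB with the most reads (chr15:767389-768952) lay 1258 bases beyond that end, on the side of RIF1, a gene of DNA repair. It held 953 Luchuan against 1612 Duroc reads, a log2 ratio of -0.19 (-0.31 to -0.08). Inside the gene, the regions with the most reads, 18.8, 62.1 and 213 kb from the lower end, had log2 ratios of -0.66 (-0.88 to -0.45), -0.34 (-0.50 to -0.18) and -0.30 (-0.49 to -0.11). Each of these regions was higher in Duroc beyond counting error when the regions common to both breeds set the scale.

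Summed over all regions, TTN was nearly level between the breeds and NEB was higher in Duroc. TTN had 34916 Luchuan reads, or 51624 after scaling, and 50339 Duroc reads, a log2 ratio of 0.04 (0.02 to 0.06), which was -0.53 without the scaling. NEB had 15198 Luchuan reads, or 22471 after scaling, and 28677 Duroc reads, a log2 ratio of -0.35 (-0.38 to -0.32), so that the Luchuan signal was 0.784 times that of Duroc. This value was -0.92 without the scaling and -0.017 (-0.046 to 0.011) with the median of 10 muscle fibre markers set to 0, a scale chosen after seeing the data, on which the difference of NEB was within counting error. The median over the regions was 0.02 in TTN (interquartile range, -0.15 to 0.16) and -0.37 in NEB (-0.59 to -0.24), against -0.01 over all regions (-0.35 to 0.32). In bulk muscle, fewer fibre nuclei and less open chromatin per nucleus cannot be told apart. Reads of both breeds were aligned to the same genome, Sscrofa11.1, and whether they align to it equally well was not tested. The median on chromosome 15 alone, over its common regions, was 0.01.

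The difference in NEB was shared by nearly all of its regions. Of 132 regions, 125 had a log2 ratio below 0 and 7 above, and the 7 reached no higher than 0.07. In TTN, 86 regions lay below 0 and 102 above, and over all regions 51.1% lay below 0. Of the regions of NEB, 54 were called as peaks in Duroc alone and 10 in Luchuan alone. The counts for NEB therefore rest in part on regions that entered the set through a Duroc peak. Over the 68 common regions of NEB, which were called in both breeds, the median log2 ratio was -0.33. It was 0.04 over the 124 common regions of TTN. The counting interval left out 0 on the Duroc side for 69 regions of NEB and on the Luchuan side for none. In TTN these counts were 21 and 22. Over all regions the shares were 15.6% and 13.5%, and over the regions with 100 reads or more, which 188 regions of TTN and 130 of NEB had, they were 22.8% and 13%.

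Few of these differences were large. A region was called where the log2 ratio was 1 or more in size and its counting interval left out 0, a rule met by 5.17% of all regions as higher in Duroc and by 6.48% as higher in Luchuan. Among the regions with 40 reads or more these shares were 5.47% and 3.12%, among those with 100 reads or more 4.72% and 1.43%, and on chromosome 15 5.07% and 6.47%. No region of TTN was called in either direction. In NEB, 8 of 132 regions, or 6.06%, were called as higher in Duroc and none as higher in Luchuan. The share in NEB was near that of all regions and by itself sets NEB apart from them in no way. The difference of NEB was seen in the sign of its regions, 125 of 132 below 0, at a median log2 ratio of -0.37.

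The 8 called regions of NEB were all called as peaks in Duroc alone. The largest ratio was at chr15:754410-754577, 208 kb from the lower end, with 1 Luchuan read and 32 Duroc reads and a log2 ratio of -3.87 (-9.78 to -1.85). The regions next to it on both sides held 156 and 132 Luchuan reads, and whether Luchuan reads align there as well as Duroc reads was not tested. The region from 672973 to 673166 held 20 Luchuan against 105 Duroc reads, a log2 ratio of -1.80 (-2.60 to -1.13). The region from 739177 to 739331 held 20 Luchuan against 97 Duroc reads, a log2 ratio of -1.69 (-2.49 to -1.01). For these 3 regions the whole counting interval lay beyond a 2-fold difference, and the first had fewer than 40 reads of both breeds. All 8 entered the set through a peak in Duroc alone, which favours ratios on the Duroc side, and the counting intervals do not allow for this. Over all regions of that class the median log2 ratio was -0.38. The region from 577815 to 577976 held 25 Luchuan against 94 Duroc reads, a log2 ratio of -1.33 (-2.05 to -0.70). The other 4 lay between -1.11 and -1.02, 3 of them between 185 and 201 kb into the gene and 1 outside it, 7336 bases below the lower end. The highest ratios in NEB were 0.07, at the regions from 621012 to 621452, from 723872 to 724063 and from 724375 to 724821, and the counting intervals of all 3 held 0.

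In TTN the extremes were smaller and lay in distinct parts of the gene. The highest log2 ratio was 0.57 (0.34 to 0.81) at chr15:84290046-84290463, 63.3 kb into the gene, with 308 Luchuan and 306 Duroc reads before scaling. The next region along the gene, from 84290467 to 84290697, had 0.56 (0.25 to 0.86), and the region from 84276216 to 84276423 had 0.56 (0.25 to 0.87). The lowest log2 ratio was -0.96 (-1.53 to -0.43) at chr15:84491130-84491314, 264 kb into the gene, with 39 Luchuan and 113 Duroc reads. It was followed by -0.76 (-1.23 to -0.31) at the region from 84488076 to 84488275 and -0.76 (-1.31 to -0.25) at the region from 84364521 to 84364675. The first of these was called as a peak in Luchuan alone, although it had 57 Luchuan and 143 Duroc reads.

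Regions were then summed in windows of 20 kb from the lower end of each gene. In TTN the log2 ratio was 0.18 (0.11 to 0.26) in the first window and 0.22 (0.15 to 0.29) in the next. It was highest from 40 to 60 kb, at 0.40 (0.31 to 0.49), where all 10 regions lay above 0, and was 0.32 (0.25 to 0.39) from 60 to 80 kb, where all 17 did. From 120 to 140 kb it was -0.25 (-0.35 to -0.14), and all 8 regions there lay below 0. Between 160 and 240 kb the 4 windows lay between -0.01 and 0.06 and their intervals held 0. In the last windows it was -0.15 (-0.22 to -0.07) and -0.22 (-0.30 to -0.14). On this scale, TTN therefore held stretches that were higher in Luchuan and stretches that were higher in Duroc, which nearly balanced in the sum. A single factor scales all windows alike, so the differences between windows do not rest on it.

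Neighbouring regions of TTN had like values. Across 182 pairs of neighbours in the gene body, Pearson's r between their log2 ratios was 0.71, and the longest run of regions above 0 held 51 regions over 76.6 kb, from 10.2 to 86.9 kb into the gene. The longest run below 0 held 22 regions over 39.2 kb, from 109 to 149 kb. In NEB r was 0.15 over 127 pairs, and 0.29 over 126 pairs without the region that had 1 Luchuan read. Neighbouring regions come from the same pooled libraries and are not independent, so these values are descriptions.

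On the scale of the common regions, all 11 windows of NEB lay below 0, and no counting interval of them reached 0. The values ran from -0.59 (-0.72 to -0.47), between 20 and 40 kb, to -0.23 (-0.33 to -0.13), between 100 and 120 kb. Low values also stood near the other end, at -0.52 (-0.62 to -0.43) from 180 to 200 kb and -0.49 (-0.59 to -0.39) from 200 to 220 kb. The longest run of regions below 0 held 39 regions and covered the first 73.7 kb of the gene. The shift was thus present along the whole gene.

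**Figure D3:**
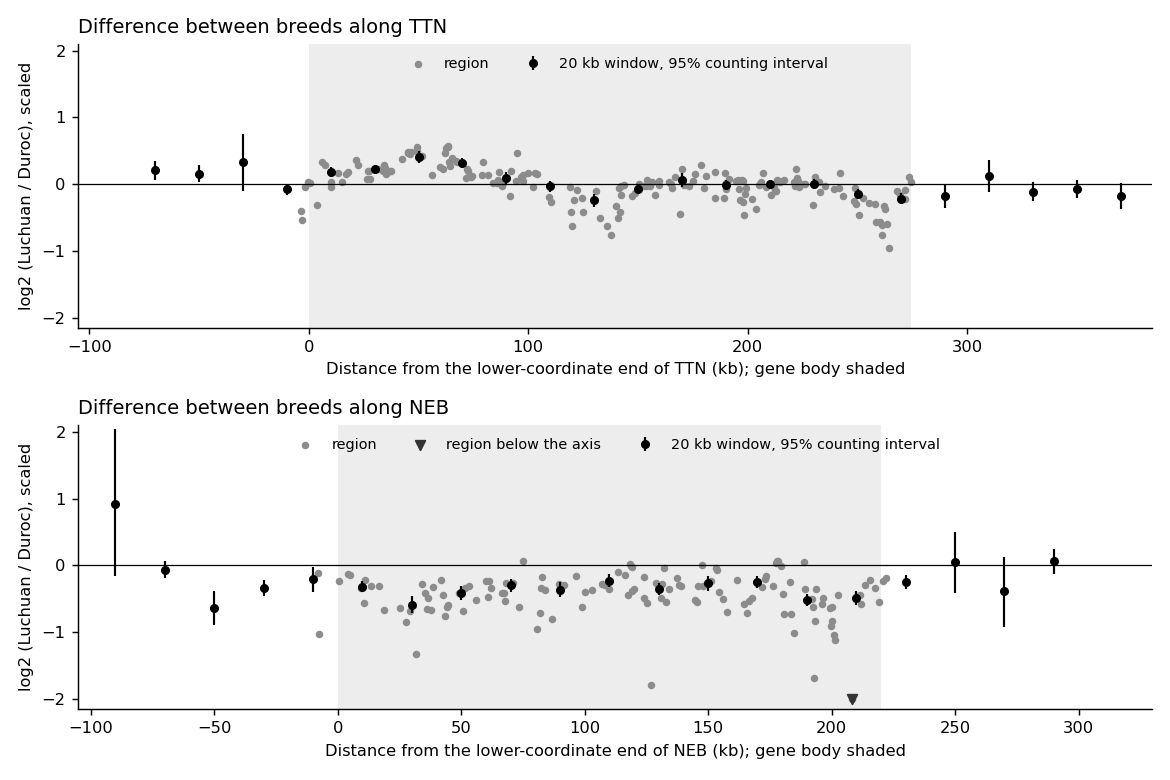
Scaled log2 ratio of Luchuan to Duroc against the distance from the lower-coordinate end of TTN (top) and NEB (bottom), in kb, with the gene body shaded. Grey points are single regions within 10 kb of the gene, and black points with bars are sums over 20 kb windows, drawn to 100 kb beyond the gene, with 95% counting intervals. TTN is highest at 0.40 between 40 and 60 kb and lowest at -0.25 between 120 and 140 kb, and all 11 windows of NEB lie between -0.59 and -0.23. The triangle marks the region of NEB at -3.87, below the axis.

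Outside the genes, regions were sparser. The last region of TTN inside the limit of 10 kb below the gene lay 3.78 kb from it, with 87 Luchuan and 170 Duroc reads, and the first outside lay 12.1 kb away, with 20 Luchuan and 30 Duroc reads. Above the gene these distances were 0.037 kb, for the region across the gene end, and 10.6 kb, with 19 Luchuan and 29 Duroc reads. For NEB they were 8.11 and 17.7 kb below the gene, with 280 Luchuan and 447 Duroc reads and with 86 Luchuan and 138 Duroc reads. Above it they were 2.04 and 10.9 kb, with 953 Luchuan and 1612 Duroc reads and with 24 Luchuan and 54 Duroc reads. The limit therefore fell in gaps between regions.

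Among the neighbours of TTN, counted over the gene and 2 kb on both sides, PLEKHA3, PRKRA and OSBPL6 on the lower side had log2 ratios of 0.21 (0.07 to 0.35), 0.21 (0.06 to 0.35) and -0.06 (-0.12 to 0.00). PRKRA encodes an activator of the kinase PKR. CCDC141, 33.4 kb from the other end, had -0.19 (-0.25 to -0.13). The first and last windows of TTN were at 0.18 and -0.22, and the window from the lower end to 20 kb below it, between TTN and PLEKHA3, was at -0.08 (-0.16 to 0.01), with 5 of 6 regions below 0. Next to NEB, RIF1 had -0.17 (-0.26 to -0.08), nearer to 0 than NEB at -0.36 (-0.39 to -0.33). The region between NEB and RIF1 with 953 Luchuan and 1612 Duroc reads lies outside the sum of NEB used here and inside that of RIF1, where it holds most of the 1539 Luchuan and 2555 Duroc reads.

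The peak classes of the table went with these differences only in part. Of the regions of TTN, 124 were common, 47 were called in Duroc alone and 17 in Luchuan alone, which is 66.0%, 25% and 9.04%. In NEB there were 68, 54 and 10, or 51.5%, 40.9% and 7.58%. Over all regions the shares were 49.1%, 31.8% and 19.1%. The regions of NEB called in Duroc alone had a median log2 ratio of -0.56, against -0.38 for this class over all regions. The regions called in Luchuan alone had medians of -0.02 in TTN and -0.03 in NEB, against 0.78 for this class over all regions. This sets unlike depths side by side. The medians were 69 Luchuan and 113 Duroc reads in TTN, 77 and 119.5 in NEB, and 20 and 17 over all regions of the class. The lowest Duroc count in the regions called in Luchuan alone was 83 reads in TTN and 96 in NEB, so no such region was without Duroc reads. The common regions held 81.3% of the reads of TTN and 72.6% of those of NEB.

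Titin and nebulin work with other sarcomere proteins, and their genes were taken as lists that had been chosen with earlier results of these data known. Values are sums over the gene and 2 kb on both sides, for which TTN had a log2 ratio of 0.04 (0.02 to 0.06) and NEB -0.36. Of 22 titin partners, 21 were found in the annotation, and all of these had 100 reads or more. The log2 ratio was below 0 for 15 genes and above 0 for 6, and its counting interval left out 0 for 14 and 3 of them. The median was -0.15, and over the 14688 genes with 100 reads or more it was 0.00 (interquartile range, -0.15 to 0.14). The lowest were ANKRD1 at -0.42 (-0.54 to -0.30), a stretch-responsive ankyrin repeat protein of the titin spring, and FHL2 at -0.34 (-0.47 to -0.20), a LIM domain protein. The highest were MYOM3 at 0.32 (0.22 to 0.41), a myomesin that links titin at the M-band, and TRIM63 at 0.20 (0.11 to 0.29), the muscle ubiquitin ligase MuRF1. In the 470 regions of this list, 10 were called as higher in Duroc and 1 as higher in Luchuan, or 2.13% and 0.213%. Over all regions these shares were 5.17% and 6.48%. Among regions with 100 reads or more, where fewer are called as higher in Luchuan, they were 4.72% and 1.43%.

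All 20 nebulin partners were found. The log2 ratio was below 0 for 16 and above 0 for 4, with intervals that left out 0 for 13 and 1, and the median was -0.15. The lowest were TPM1 at -0.54 (-0.60 to -0.48), a tropomyosin of the thin filament, and TNNT1 at -0.51 (-0.71 to -0.32), the troponin T of slow fibres. The highest were NEBL at 0.23 (0.12 to 0.34), which encodes nebulette, the short relative of nebulin, and CFL2 at 0.12 (-0.03 to 0.26), the muscle cofilin that severs actin. NEBL differed from NEB in density too, with 0.451 regions per 10 kb of its body. LMOD3, a leiomodin that acts on thin filament length, and KLHL40, a kelch protein that stabilises nebulin, had -0.21 (-0.31 to -0.10) and -0.32 (-0.42 to -0.23) and were named after their values were seen. In the 289 regions of this list, 14 were called as higher in Duroc and 3 as higher in Luchuan, or 4.84% and 1.04%. Over all regions these shares were 5.17% and 6.48%, and among those with 100 reads or more 4.72% and 1.43%. Of the 14, 7 were in the single gene XIRP2.

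The list of other long muscle genes held 12 genes, of which 11 had a log2 ratio below 0, with a median of -0.24. The lowest were XIRP2 at -0.44 (-0.51 to -0.36), which binds actin and is also among the nebulin partners, and DMD at -0.39 (-0.42 to -0.35), the dystrophin gene on the X chromosome. The highest were NEBL, again, and UTRN at -0.04 (-0.10 to 0.01), which encodes utrophin. In the 838 regions, 56 were called as higher in Duroc, or 6.68%, and 10 as higher in Luchuan, or 1.19%. Over all regions these shares were 5.17% and 6.48%, and among those with 100 reads or more 4.72% and 1.43%. Of the 56, 39 were in DMD, which had 371 of the regions, and 7 were in XIRP2, so the share does not describe the list as a whole.

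The muscle fibre markers moved with NEB. Of them, ACTA1 and TNNT3 are also nebulin partners. All 10 had a log2 ratio below 0, from -0.47 (-0.54 to -0.40) at CKM to -0.09 (-0.16 to -0.01) at ACTA1, with a median of -0.33. NEB lay within this range and TTN above all 10. The markers of other cell types had few reads, and their genes with 100 reads or more ran from -0.30 to 0.34 for the adipocyte list, from -0.71 to 0.74 for the endothelial, from -0.14 to 0.38 for the fibroblast and from -1.07 to 0.14 for the immune list. The summed level of the muscle fibre list was 180 scaled Luchuan and 227 Duroc reads per kb of gene, and the summed levels of the adipocyte, endothelial, fibroblast and immune lists lay between 3.04 and 7.03 in Luchuan and between 3.08 and 6.96 in Duroc. The part of the fibre markers in the result for NEB was not tested. With the median of the 10 fibre markers set to 0, TTN was at 0.37 (0.35 to 0.39).

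Among the 270 genes with 10000 reads or more, the median log2 ratio was -0.03 (interquartile range, -0.14 to 0.06), with values from -0.55 to 0.53. NEB had the 7th lowest value, while TTN had the 84th highest. The 6 genes below NEB were ADAMTSL1, TPM1, DOCK9, TRDN, IGFN1 and DMD, of which TPM1, TRDN, IGFN1 and DMD have known roles in muscle. They were named after their values were seen.

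**Figure D4:**
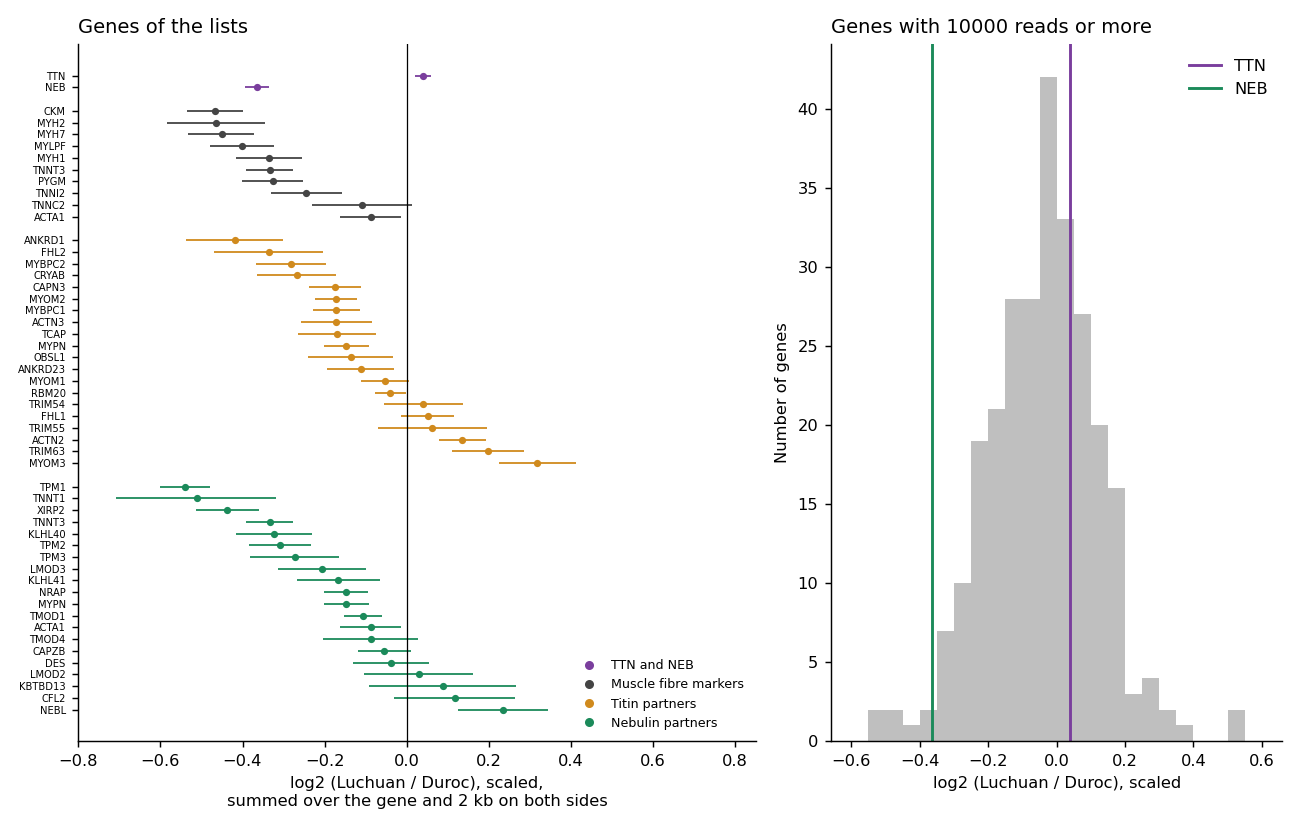
Left, scaled log2 ratio of Luchuan to Duroc, summed over each gene and 2 kb on both sides, for TTN and NEB, the muscle fibre markers and the titin and nebulin partners with 100 reads or more, except 1 titin partner that is not drawn, with 95% counting intervals as bars. Right, number of genes by log2 ratio among the 270 genes with 10000 reads or more, with lines at TTN and NEB. NEB at -0.36 lies among the fibre markers, which run from -0.47 to -0.09, and TTN at 0.04 lies to their right.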

How the data were processed

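ATAC-seq was done on muscle of 3 Duroc and 3 Luchuan boars. For read filtering the authors used Trimmomatic 0.36, for alignment Bowtie2 against the Sscrofa11.1 genome, and for peaks MACS2. Removal of duplicates, the transposase shift and pooling are not given in the sources used here. The authors deposited raw read counts per interval, 1 column per breed and none per boar, so the columns were read as pooled. Their log2 fold change, average signal and P were not used. RNA-seq was not analysed here, and some comparison genes are counted in the lists but not reported by name.

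Starts, which the file counts from 0, are given from 1. Gene bodies came from RefSeq (Sscrofa11.1), which matched both members. No genome sequence was used, so no sequence is printed. edgeR and other replicate tests could not be fitted to 1 count per breed. The call rule was run on simulated counts drawn without any spread between boars. Such counts cannot show how often differences between boars alone would be called. Members and lists were chosen with earlier results of these data known. Named regions are those nearest each gene end, the 5 with the most reads, all called regions and the 3 highest and 3 lowest log2 ratios among those with 40 reads or more. Named list genes are the 2 highest and 2 lowest with 100 reads or more. Alternatives covered scaling, the number added, merging, the window, low counts and the fold. Scripts ran under Python 3.11.15 with SciPy 1.17.1, NumPy 2.4.6, Matplotlib 3.10.9 and pandas 2.3.3.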

Additional observations from a re-analysis of the deposited data

How the results depend on the processing

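No paired analysis was possible because each count column stands for a breed without naming a boar, and for the same reason no boar could be left out. Of 104 values under the alternatives, 80 stayed within the counting interval of the reported sum, or within 1.5 times the reported count. These 80 include 13 counts of TTN and 13 of NEB for regions higher in Luchuan, which were 0 under every setting. Of 11 summed log2 ratios per gene, 7 stayed for TTN and 6 for NEB. With total reads made equal, the summed and median log2 ratios were 0.067 and 0.054 for TTN and -0.32 and -0.34 for NEB. With the median set to 0 within 10 classes of signal, they were 0.061 and 0.071 for TTN, and the sum for NEB was -0.32. Without any scaling TTN turned to -0.53 and -0.54, with 15 regions called as higher in Duroc, and NEB moved to -0.92 and -0.94, with 57, against 19.9% of all regions. That setting moves the median of all regions to -0.57, which fewer Luchuan reads give by construction. With the fibre markers centred at 0, which moves the median of all regions to 0.32, the values were 0.37 and 0.36 for TTN and -0.017 (-0.046 to 0.011) and -0.037 for NEB, with 3 regions of NEB called as higher in Duroc, against 2.37% of all regions, and none as higher in Luchuan, against 12.2%. Counting every interval as listed, which holds common regions more than once, gave 324 intervals for TTN and 213 for NEB, and -0.32 and -0.33 for NEB. At a fold of 1.5, 7 regions of TTN and 34 of NEB were called as higher in Duroc, against 10.6% of all regions, and none as higher in Luchuan. The level of TTN near 0 thus rests on the scale chosen. The interval of the NEB sum left out 0 under the other alternatives run and held 0 on the fibre marker scale. Depth limits regions under 100 reads, of which NEB had 2 and TTN none.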
